A study of Mus musculus with 6 samples.

Results

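The solute carriers are membrane proteins that move ions, amino acids, sugars, nucleosides, metals and other small solutes across the plasma membrane and the membranes of organelles. They were taken here as all genes of the ventricular count table whose symbol has the form of Slc, a number, a and a number. The Slc25 carriers of the inner mitochondrial membrane and 14 carriers of glucose, lactate, iron, creatine, carnitine, fatty acids, neutral amino acids and sodium/calcium exchange were left out (Slc2a1, Slc2a3, Slc2a4, Slc2a8, Slc2a12, Slc6a8, Slc8a1, Slc11a2, Slc16a1, Slc16a3, Slc22a5, Slc27a1, Slc38a4 and Slc40a1). Of 206 genes with such a symbol, 37 were Slc25 genes and 14 were left out by name, which left 155 genes of the 14495 in the table, and 154 of them were tested. The symbol was not proof of transport: 149 of the 155 encode carriers, and 6 only carry a carrier's name. These are the PDZ scaffold proteins Slc9a3r1 and Slc9a3r2, the genes Slc4a1ap and Slc7a6os, and the pseudogene symbols Slc2a4rg-ps and Slc39a1-ps. Slc39a1-ps was the gene that did not pass the filter on low counts. Slc24a6, which current annotation calls Slc8b1, is a sodium/calcium exchanger of mitochondria although it is outside the Slc25 family.

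Ventricles came from male mice of the C57BL/6 strain, aged 14 days (P14) or 1 day (P1) after birth, and messenger RNA was read in 3 libraries per age. Each library held poly(A) RNA from 3 pooled hearts, 9 hearts per age, and was read for 36 cycles. Atria had been removed and the septum kept, while the tissue field of the labels names the left ventricle. The labels name no transgene, deletion or treatment, so the groups differ by age. Total counts were 15725993, 9104230 and 9295536 at P14 and 17353933, 13406479 and 5916557 at P1, replicates 1 to 3. The cardiomyocyte markers Tnnt2, Actn2, Ryr2, Pln, Ttn and Myl3 summed to 44063 to 53292 CPM at P14 and to 19662 to 25333 CPM at P1, and 4 of the 6 rose. The atrial markers Myl7, Nppa, Sln and Myl4 were present at 421 to 567 CPM in sum at P14 and 774 to 1634 CPM at P1. In bulk RNA, fewer cells of a type and less RNA per cell cannot be told apart. CPM are read counts scaled to library size after TMM (trimmed mean of M-values) correction, and each value is a level unless it is called a log2 fold change, which is always P14 over P1.

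Carriers fall into families by sequence, and 1 family can move quite different solutes. Secondary active carriers use the sodium, proton or chloride gradient to pull a second solute along or push it out, exchangers swap one solute for another, and facilitative carriers let a solute run down its own gradient. In heart muscle the best known tasks are intracellular pH control by bicarbonate and proton exchangers, chloride and volume control by cation-chloride cotransporters, amino acid supply, taurine accumulation, and uptake of adenosine and of thyroid hormone.

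At P14, 40 carriers and carrier-named genes rose and 24 fell (adjusted p below 0.05 by the quasi-likelihood F-test of edgeR), and 90 did not pass. The called share was 41.6% of the 154, against 43.8% of all 14301 tested genes. Rises made up 25.97% of the members against 21.8% of all genes, and falls 15.6% against 22%. Changes of at least 2-fold numbered 29 rises and 18 falls, where 14.2% of all genes rose and 13.5% fell by that much. The 3 P14 values did not overlap the 3 P1 values in 83 members, in 49 of them above and in 34 below, and the same held for 54.8% of all genes. The median log2 fold change was 0.11 over the members and −0.01 over all genes, and the members ranged from −3.08 (Slc1a1) to 3.93 (Slc38a3). The plot of log2 fold change against level shows that the called members spread over the whole range of abundance. Among the 69 members with a mean of at least 10 CPM, 21 rose and 8 fell, together 42.0%, against 44.5% called of all genes at that level.

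**Figure D1:**
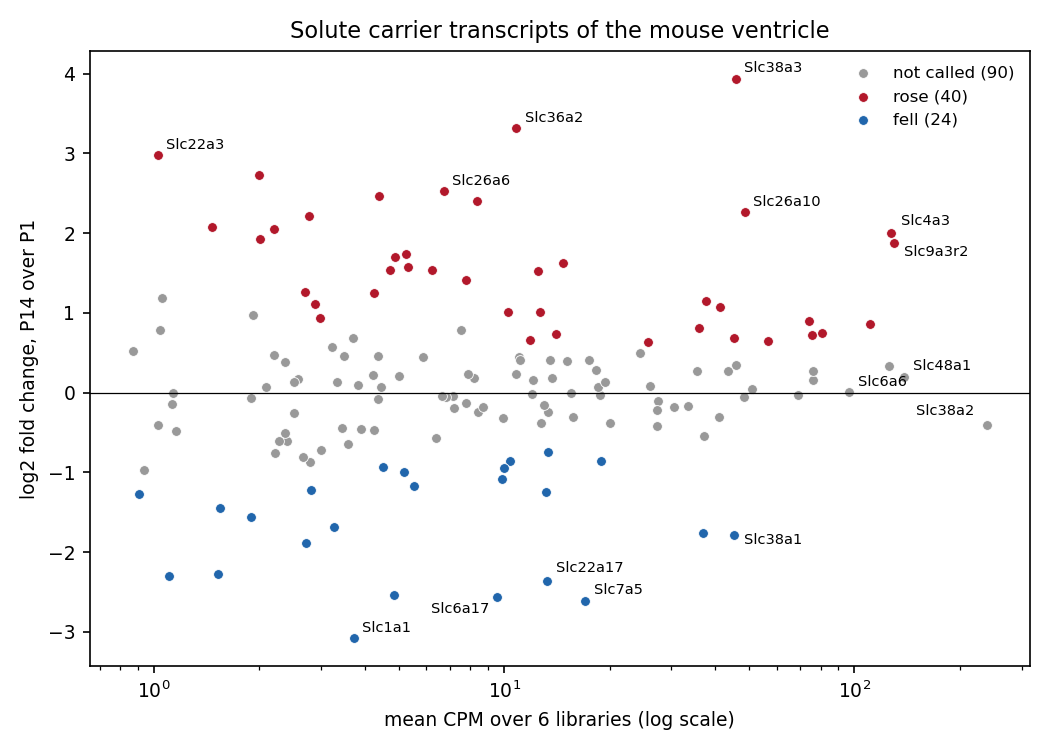
Log2 fold change (P14 over P1) of the 154 tested carriers and carrier-named genes against their mean CPM over the 6 libraries on a log axis. Each point is a gene; 40 rose, 24 fell and 90 were not called, with Slc38a3 at 3.93 as the highest and Slc1a1 at −3.08 as the lowest point.

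The direction of the calls is relative to the scaling. With libraries scaled by their totals alone, the count became 24 rises and 49 falls, and all genes had a median log2 fold change of −0.47 in place of −0.01. No called member changed sign, but the calls of 16 risen members ended, with log2 fold changes of 0.63 to 1.26: Slc11a1, Slc12a4, Slc16a10, Slc20a2, Slc24a3, Slc29a1, Slc37a1, Slc37a2, Slc38a7, Slc38a9, Slc43a3, Slc44a2, Slc45a3, Slc47a1, Slc4a2 and Slc9a8.

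Levels per kilobase of exon put Slc48a1, a haem carrier of endosomes and lysosomes, highest over both ages, at 53.9 CPM per kb at P14 and 46.99 at P1. It was followed by the scaffold Slc9a3r2 at 76.96 CPM per kb at P14 and 21.03 at P1, and then by Slc39a7, a zinc carrier of the endoplasmic reticulum and Golgi, at 32.2 and 26.7 at the same ages. Slc39a7 shares most of its exon sequence with the overlapping gene Gm20427, and only 16.1% of its 36-base windows are unique in the transcriptome, so its level is uncertain. Slc38a2, the sodium-coupled neutral amino acid transporter SNAT2, had 23.2 CPM per kb at P14 and 30.9 at P1. The nucleoside carrier Slc29a1 reached 24.1 CPM per kb at P14, against 12.97 at P1, the phosphate carrier Slc20a2 had 22.99 against 12.7, and the purine nucleobase carrier Slc43a3 had 21.1 against 12.8.

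Slc48a1 itself had 171, 135 and 138 CPM at P14 and 129, 96.7 and 162 CPM at P1, with overlapping ages and a log2 fold change of 0.20 ± 0.22 (SE, n = 3 per age; adjusted p = 0.481, edgeR). Slc9a3r2, which tethers membrane proteins to the cytoskeleton and is also known as NHERF2, had 212, 192 and 207 CPM at P14 and 74.2, 29.3 and 63.5 CPM at P1. It rose, with a log2 fold change of 1.87 ± 0.29 (adjusted p = 0.000206, edgeR), and the lowest P14 library was above the highest P1 library. Its P1 replicate 2 was well below the other P1 libraries.

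Replicate 2 of P1 was low for many GC-rich members. It was the lowest P1 library in 53 of the 77 members with a transcript GC content above the median of 51.8%, and the highest in 49 of the 77 at or below it. Transcript GC content had a median of 53.99% in members that rose, 49.03% in members that fell and 50.9% in the others. Its part in the calls was not tested beyond a correction for GC content and length, under which 45 members rose and 29 fell and 60 of the 64 calls stayed.

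Because the series concerns the methylome of the growing heart, the 250 bases before the RefSeq start are shown for the largest rises and falls of at least 10 CPM that have a RefSeq window on GRCm38.p6, with CG dinucleotides, the sites of DNA methylation, in capitals. Methylation itself was not analysed here. Windows were found for 117 of the 155 members. The windows are chr10:127180583-127180832 on the minus strand for Slc26a10, chr1:75546212-75546461 on the plus strand for Slc4a3, chr14:54913133-54913382 on the minus strand for Slc22a17 and chr2:122702664-122702913 on the minus strand for Slc30a4. The gene starts of GENCODE M21 lie farther upstream for Slc4a3 and Slc26a10, so that 196 and 63 bases of their windows are inside the GENCODE gene.
Slc26a10: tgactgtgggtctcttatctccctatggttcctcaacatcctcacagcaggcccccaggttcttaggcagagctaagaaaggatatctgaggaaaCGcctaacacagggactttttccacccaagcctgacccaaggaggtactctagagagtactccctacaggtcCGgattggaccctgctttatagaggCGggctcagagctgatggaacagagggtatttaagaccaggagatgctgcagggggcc
Slc4a3: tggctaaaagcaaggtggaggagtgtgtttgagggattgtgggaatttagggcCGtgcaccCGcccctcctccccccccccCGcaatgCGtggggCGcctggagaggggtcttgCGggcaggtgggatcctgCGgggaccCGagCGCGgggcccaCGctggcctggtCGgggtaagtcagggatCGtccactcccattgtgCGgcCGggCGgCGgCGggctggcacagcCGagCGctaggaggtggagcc
Slc22a17: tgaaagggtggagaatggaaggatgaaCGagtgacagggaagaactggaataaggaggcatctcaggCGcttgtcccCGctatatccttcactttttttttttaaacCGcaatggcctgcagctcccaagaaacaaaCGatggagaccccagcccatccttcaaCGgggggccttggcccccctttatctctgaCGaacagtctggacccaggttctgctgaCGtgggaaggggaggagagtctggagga
Slc30a4: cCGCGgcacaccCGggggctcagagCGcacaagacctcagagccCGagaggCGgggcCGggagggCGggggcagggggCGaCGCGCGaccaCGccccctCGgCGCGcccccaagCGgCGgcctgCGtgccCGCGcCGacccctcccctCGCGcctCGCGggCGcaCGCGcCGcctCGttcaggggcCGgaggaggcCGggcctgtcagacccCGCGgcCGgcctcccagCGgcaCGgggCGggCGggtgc

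These 4 windows differ widely in CG content and not by direction of change. The window of the rising anion carrier Slc26a10 holds 3 CG sites and that of the rising exchanger Slc4a3 holds 20, while the falling Slc22a17 has 8 and the falling zinc carrier Slc30a4 has 40. Across the windows of called members, the median was 15 CG sites for the 31 that rose and 10 for the 18 that fell. It was 16 for the 68 not called and 6 for all 32851 windows of the RefSeq set. For the CG sites each member had 1 window, the nearest to its GENCODE start. The 32851 windows belong to 27025 genes, more than the 14495 of the count table, so the comparison is not with expressed genes alone. Fewer than 5 sites were found in 3 of the rising, 1 of the falling and 8 of the uncalled members, and in 44.4% of all windows. A motif, in contrast, was counted where any RefSeq window of the gene held it. The GC box GGGCGG, searched on both strands, was in 22 of 31 rising, 11 of 18 falling and 48 of 68 uncalled members. It was in the windows of 35.4% of the 27025 genes. The E-box CACGTG, which reads the same on both strands, was in 4, 4 and 9 of these members and in 6.86% of genes. Such matches describe the letters and do not mark a bound site.

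By substrate, bicarbonate, chloride and other anion carriers had the most rises, 8 of 17 tested (47.1%, against 21.8% of all genes). The other 9 did not pass. Amino acid carriers were divided, with 7 rises and 7 falls among 27 (51.9% called, against 43.8% of all genes). Metal carriers were divided too, with 5 and 5 of 23 (43.5% called). The bars by substrate class show this split beside the smaller classes, in each of which at most 3 genes moved in 1 direction. By family, 42 families had a tested carrier: 15 had only rises among their called genes, 8 had only falls, 8 had both and 11 had no call.

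**Figure D2:**
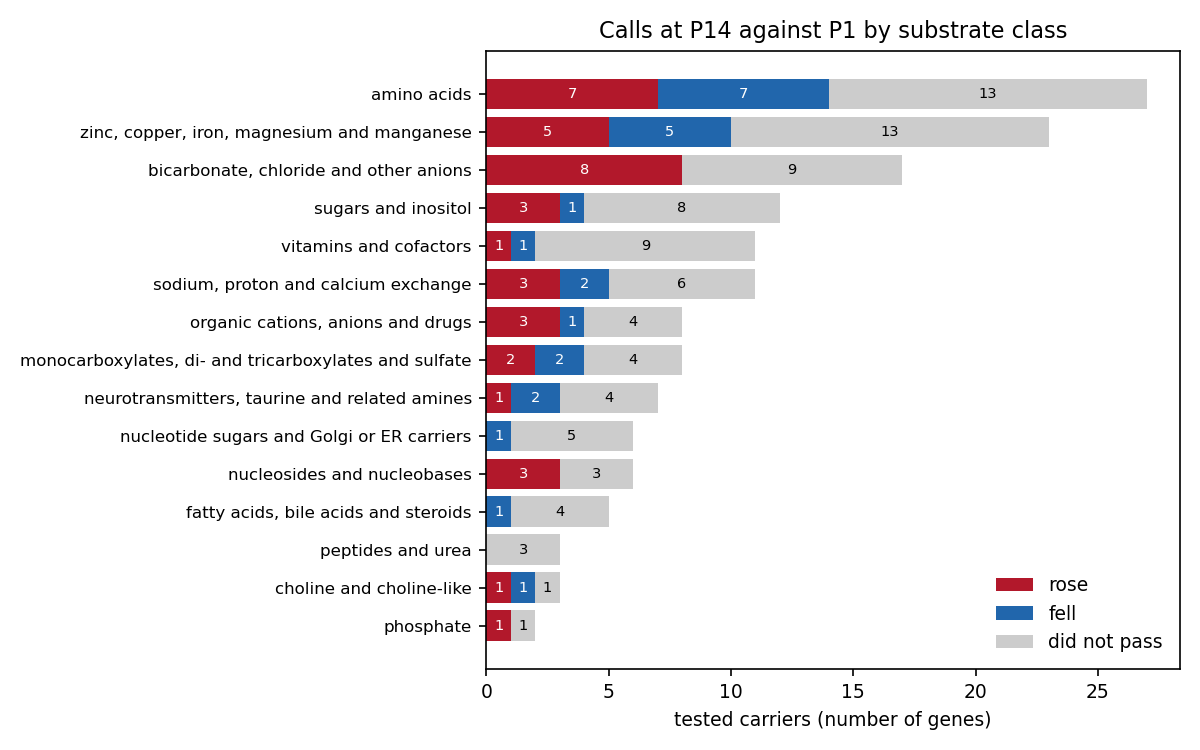
Number of tested carriers in each of 15 substrate classes, divided into genes that rose at P14, genes that fell and genes that did not pass the test. Anion carriers show 8 rises and 9 uncalled genes among 17, while amino acid carriers show 7 rises and 7 falls among 27.

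Amino acid carriers included the largest rise and the largest fall of the set. Slc38a3, the system N carrier SNAT3 that moves glutamine, histidine and asparagine with sodium against protons, had 88.4, 93.6 and 76.1 CPM at P14 and 5.41, 4.02 and 8.08 CPM at P1. All P14 libraries lay far above all P1 libraries, and the level was 15.3-fold higher, a log2 fold change of 3.93 ± 0.26 (adjusted p = 1.16e-07, edgeR). The gene lies at chr9:107650634-107669530 on the minus strand (GRCm38, GENCODE M21). Slc36a2, the proton-coupled carrier PAT2 of glycine, alanine and proline, had 20.4, 21.1 and 17.5 CPM at P14 and 1.57, 2.27 and 2.19 CPM at P1. Its ages did not overlap either, with a log2 fold change of 3.31 ± 0.27 (adjusted p = 5.69e-07, edgeR). Its neighbour Slc36a1, the lysosomal paralogue 19.3 kb away on chromosome 11, had 6.12, 9.69 and 7.34 CPM at P14 and 8.84, 8.4 and 10.1 CPM at P1. Those ages overlapped, and Slc36a1 was not called (log2 fold change −0.24 ± 0.26). Slc36a2 is also known as a surface protein of brown fat cells. Of 5 adipocyte markers, Adipoq, Plin1, Cidec and Lep were absent from the count table, in which the smallest gene total was 60 counts. Fabp4 alone was present, and it rose to 1162 to 1522 CPM at P14, against 637 to 804 CPM at P1. The part of fat cells in the rise of Slc36a2 was not tested.

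Slc43a2, the facilitative carrier LAT4 of branched-chain and aromatic amino acids, had 18.8, 19.4 and 17.5 CPM at P14 and 5.5, 7.58 and 6.23 CPM at P1, with no overlap. It rose by a log2 fold change of 1.53 ± 0.23 (adjusted p = 0.000138, edgeR). Both members of the Slc38 family that sit in the lysosomal membrane rose. Slc38a9, a sensor of lysosomal arginine, had 16.1, 17.9 and 16.6 CPM at P14 and 6.75, 9.85 and 8.59 CPM at P1 (log2 fold change 1.01 ± 0.23). Slc38a7, which exports glutamine from lysosomes, had 17.7, 17.1 and 17.6 CPM at P14 and 11, 8.51 and 12.5 CPM at P1 (0.73 ± 0.23). In both genes the ages were separate, with a narrow spread at P14. The other rises were Slc7a10, the small neutral amino acid exchanger Asc-1 (1.93 ± 0.43), and Slc38a6 (1.54 ± 0.45), of whose windows only 24.1% are unique. Slc7a10 had 70, 14 and 22 reads at P14 and 21, 16 and 3 reads at P1. Its exons overlap Lrp3 on the opposite strand by 377 bases.

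The falls comprised several sodium-coupled or exchange carriers of the plasma membrane. Slc7a5, the large neutral amino acid exchanger LAT1, had 5.21, 3.19 and 5.8 CPM at P14 and 25.5, 23.4 and 39.2 CPM at P1. Every P14 library was below every P1 library, and Slc7a5 was 6.1-fold lower, with a log2 fold change of −2.61 ± 0.29 (adjusted p = 8.23e-06, edgeR). Its heavy chain partner Slc3a2 (4F2hc, CD98) had 37.1, 24 and 29.2 CPM at P14 and 52.1, 37.2 and 43.3 CPM at P1. The ages barely separated, and Slc3a2 did not pass (log2 fold change −0.55 ± 0.22, adjusted p = 0.0558, edgeR). It was called as lower with the replicate number as a block (adjusted p = 0.0225), with the GC and length correction (0.0024), with over 5 CPM in 3 libraries (0.0471), with library totals alone (0.00102) and without P1 replicate 2 (0.0104) or P14 replicate 1 (0.0282), all by edgeR. The other known heavy chain, Slc3a1 (rBAT), fell by 0.86 ± 0.25 on the log2 scale at 7.33 ± 1.18 CPM at P14 and 13.5 ± 2.23 CPM at P1 (SD, n = 3), but its exons overlap Prepl on the opposite strand.

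Slc38a1, the sodium-coupled neutral amino acid carrier SNAT1, had 20, 16.5 and 24.3 CPM at P14 and 57, 82.6 and 70.6 CPM at P1. It fell with no overlap, by a log2 fold change of −1.79 ± 0.22 (adjusted p = 2.2e-05, edgeR). Its neighbour 44.5 kb away on chromosome 15, Slc38a2, had 181, 206 and 227 CPM at P14 and 242, 320 and 257 CPM at P1. The P14 libraries were all lower, yet Slc38a2 did not pass (log2 fold change −0.41 ± 0.20, adjusted p = 0.106, edgeR; 0.00271 with library totals alone). Slc38a5 (SNAT5), a system N carrier like Slc38a3, had 1.62, 1.06 and 1.42 CPM at P14 and 7.63, 6.06 and 11.3 CPM at P1. Its ages were separate and its log2 fold change was −2.54 ± 0.35 (adjusted p = 5.08e-05, edgeR), so that both system N carriers were called, in opposite directions. Slc1a1, the glutamate and aspartate carrier EAAC1, had 0.422, 1.86 and 0.258 CPM at P14 and 6.85, 8.05 and 4.88 CPM at P1, a log2 fold change of −3.08 ± 0.51. Only 69.2% of its windows are unique, and it overlaps 4430402I18Rik on the opposite strand. Slc7a4 (−1.69 ± 0.39) and Slc1a4, the neutral amino acid exchanger ASCT1 (−0.93 ± 0.28), completed the falls. The glutamine exchanger Slc1a5 (ASCT2) had 36.8 ± 4.85 CPM at P14 and 45.3 ± 3.64 CPM at P1 and was not called (−0.30 ± 0.19, adjusted p = 0.226, edgeR), although it passed as lower with the GC and length correction (0.00465) and with library totals alone (0.0101).

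Summed over the 27 genes of the amino acid class, heavy chains included, levels were 629, 647 and 666 CPM at P14 and 679, 731 and 711 CPM at P1. The P14 sums were lower in all libraries, and Slc38a2 was the largest part. Among 13 analysed genes of the amino acid starvation response, 4 rose and 3 fell (53.8% called, against 43.8% of all genes). The largest of each were Chac1, which degrades glutathione (log2 fold change 6.46 ± 0.56), and Psat1, an enzyme of serine synthesis (−3.54 ± 0.27). Asparagine synthetase Asns also fell (−1.60). Of 23 genes of amino acid sensing at the lysosome, 4 rose and 3 fell (30.4% called, against 43.8% of all genes). Among them were Lamtor2 of the Ragulator complex (0.90) and the GTPase Rragb (−1.69). Calls that ended without 1 library were those of Slc38a6 (adjusted p = 0.0751 without P14 replicate 2), Slc38a7 (0.0542 without P14 replicate 2 and 0.0587 without P14 replicate 3), Slc1a4 (0.0571 and 0.0602 without the same libraries) and Slc3a1 (0.0674 without P14 replicate 2 and 0.0532 without P1 replicate 3), all by edgeR.

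**Figure D3:**
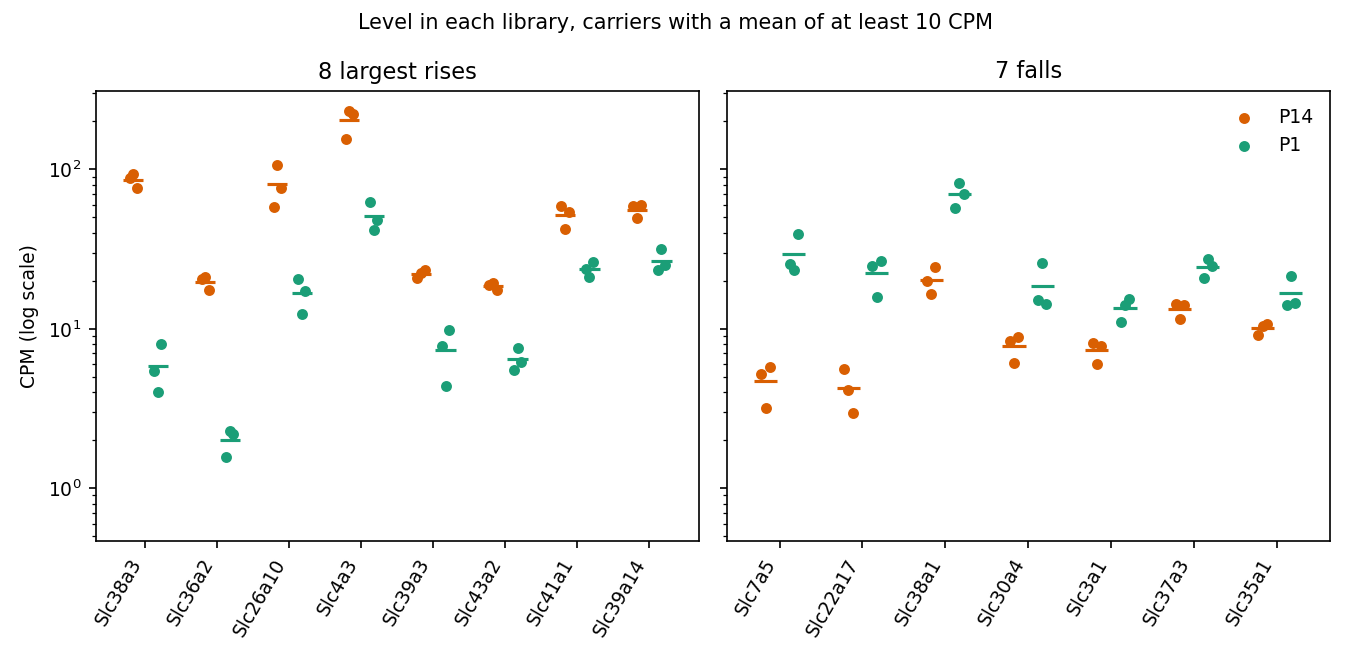
CPM of each library on a log axis for the 8 largest rises and 7 of the 8 falls among carriers with a mean of at least 10 CPM. Each point is a library of P14 or P1 (3 per age) and each short line is the mean; no P14 point overlaps a P1 point of the same gene.

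The anion carriers that rose belong to the Slc4, Slc26 and Slc12 families. In the bicarbonate family Slc4, 4 of 6 tested genes rose (66.7% called, against 43.8% of all genes). Slc4a3, the chloride/bicarbonate exchanger AE3 of heart and brain, had 156, 231 and 224 CPM at P14 and 62.1, 42 and 48 CPM at P1. It was 4.01-fold higher without overlap, a log2 fold change of 2.003 ± 0.23 (adjusted p = 1.03e-05, edgeR), and lies at chr1:75546266-75562172 on the plus strand. Slc4a8, a sodium-driven chloride/bicarbonate exchanger, rose at low level, with 3.03, 5.31 and 5.54 CPM at P14 and 0.879, 1.34 and 0.505 CPM at P1 (log2 fold change 2.21 ± 0.40). Slc4a2, the widely expressed exchanger AE2, had 45.5, 47.1 and 44.9 CPM at P14 and 31.9, 14.2 and 32.8 CPM at P1 (0.81 ± 0.27). Its P1 values rest partly on the low replicate 2, its exons overlap Fastk, and the call ended with the GC and length correction (adjusted p = 0.0609, edgeR) and without each P14 library in turn (0.0666 to 0.0827).

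The fourth Slc4 rise was Slc4a1, band 3 of the red cell membrane, with 10.1, 11 and 12.2 CPM at P14 and 3.89, 1.98 and 7.58 CPM at P1, no overlap and a log2 fold change of 1.41 ± 0.38 (adjusted p = 0.00923, edgeR). Erythroid markers moved with it: of 5 analysed 4 rose (Tfrc, Alas2, Hba-a1 and Hba-a2), and the sums of the 5 were 1061 to 1432 CPM at P14 and 204 to 356 CPM at P1. Their part in the rise of Slc4a1 was not tested. The sodium/bicarbonate cotransporters were not called: Slc4a4 (NBCe1) had 14.2, 20.7 and 21.1 CPM at P14 and 15.3, 23.5 and 18 CPM at P1, with overlap and a log2 fold change of −0.03 ± 0.24, and Slc4a7 (NBCn1) had 0.23 ± 0.32.

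In the multifunctional anion exchanger family Slc26, 2 of 5 genes rose (40% called, near the 43.8% of all genes). Slc26a10, a little studied member, had 57.8, 107 and 76.5 CPM at P14 and 20.7, 12.4 and 17.2 CPM at P1, without overlap, for a log2 fold change of 2.26 ± 0.26 (adjusted p = 1.42e-05, edgeR). Its exons at chr10:127171393-127180645 overlap B4galnt1 on the opposite strand by 715 bases, and without knowledge of strand in the counting the reads of the pair cannot be told apart there. Slc26a6, an exchanger of chloride for bicarbonate and oxalate, had 13.8, 10.9 and 9.92 CPM at P14 and 2.5, 1.87 and 1.35 CPM at P1. This was a clear separation, with a log2 fold change of 2.53 ± 0.30 (adjusted p = 1.46e-05, edgeR). The sulfate carrier Slc26a2 had a log2 fold change of 0.78 ± 0.34 and did not pass (adjusted p = 0.0751, edgeR). It was called higher with the replicate number as a block (adjusted p = 0.0245), with the GC and length correction (0.00442), with both (0.00257) and without P1 replicate 2 (0.00948) or P14 replicate 1 (0.0303), all by edgeR.

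Among the cation-chloride cotransporters, Slc12a9 had 6.12, 10.9 and 10.8 CPM at P14 and 4.58, 1.63 and 3.2 CPM at P1 and rose (1.54 ± 0.37). The potassium-chloride exporter Slc12a4 (KCC1) had 50.6, 59.2 and 57.7 CPM at P14 and 46.8, 23.4 and 33.7 CPM at P1 (0.69 ± 0.24). Its ages barely separated, and the call ended with the GC and length correction (adjusted p = 0.108, edgeR) and without P14 replicate 2 or 3 or P1 replicate 2 or 3 (0.0517 to 0.101). Slc12a7 (KCC4), the most abundant of the family by CPM, had 130, 139 and 152 CPM at P14 and 113, 89.8 and 130 CPM at P1 and was not called (0.34 ± 0.20). The sodium-potassium-chloride importer Slc12a2 (NKCC1) had 13.4, 22.7 and 21.1 CPM at P14 and 13.7, 23.1 and 17.2 CPM at P1, an overlapping pair of ranges (0.07 ± 0.26).

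Summed over the 17 anion carriers, levels were 541, 718 and 696 CPM at P14 and 357, 291 and 351 CPM at P1, so each P14 sum exceeded each P1 sum. Carbonic anhydrases, which supply and remove bicarbonate, had 3 rises and 2 falls among 8 tested (62.5% called, against 43.8% of all genes). Car4, on the outer cell surface, had 98, 70.4 and 88.3 CPM at P14 and 13, 14.1 and 20.2 CPM at P1 (2.46 ± 0.23), while the hypoxia-induced Car9 fell (−3.14). Of 10 genes of the WNK kinases, which regulate the cation-chloride cotransporters, and their effectors, 2 rose and 2 fell. The called share was 40%, near the 43.8% of all genes. Wnk2 was at 2.51 ± 0.26 and the adaptor Klhl2 at −1.04.

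**Figure D4:**
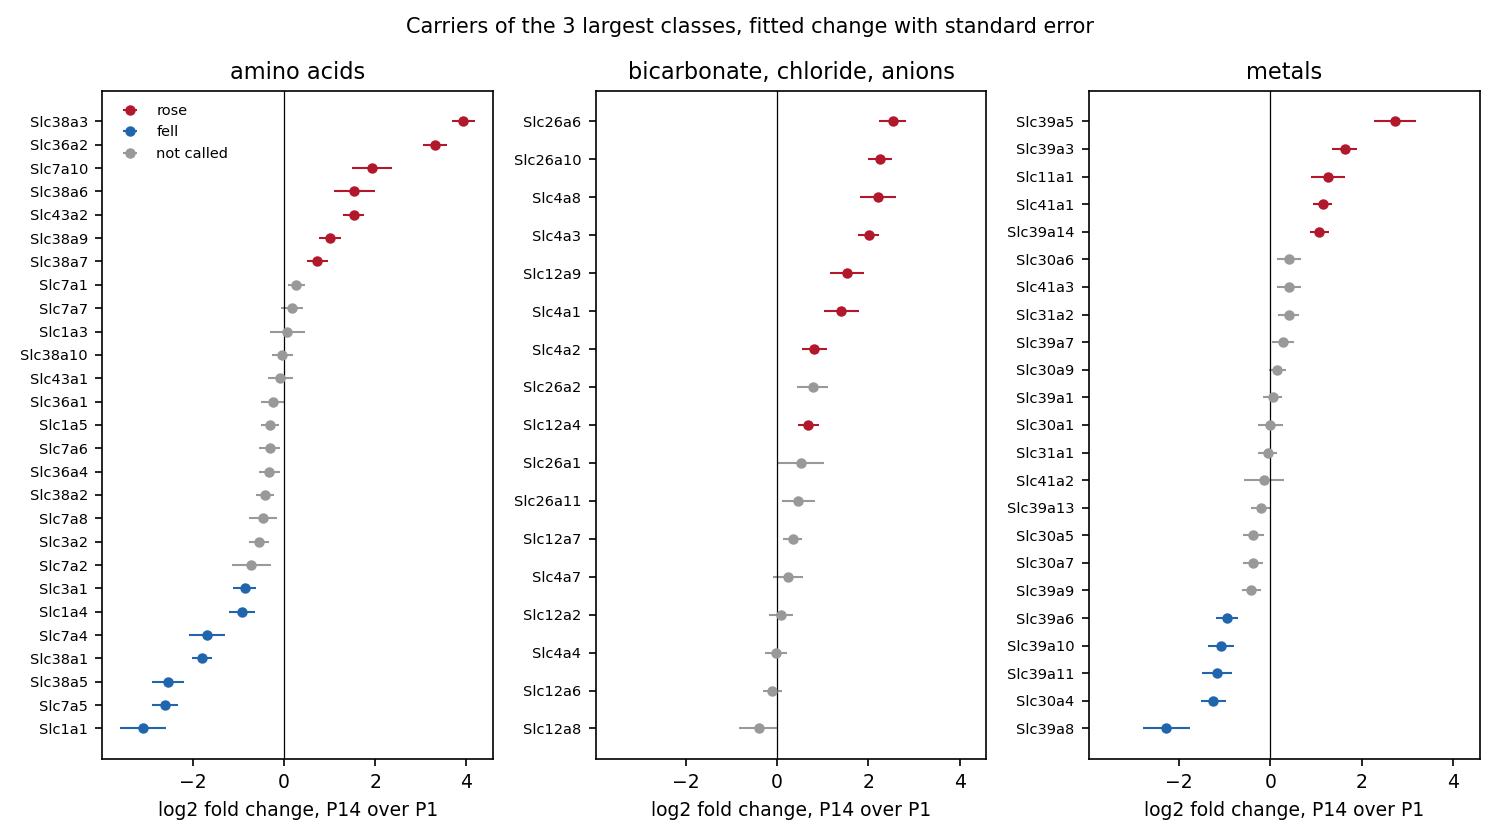
Log2 fold change (P14 over P1) with its standard error for every tested carrier of amino acids (27), of bicarbonate, chloride and other anions (17) and of metals (23), ordered within each class. Points to the right of 0 were higher at P14; the anion class has called genes on the right side, up to 2.53 for Slc26a6, and the other classes have them on both sides.

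Metal carriers divided within the zinc importer family Slc39, where 3 of 11 genes rose and 4 fell (63.6% called, against 43.8% of all genes). Slc39a14 (ZIP14), which takes up zinc, iron and manganese, had 58.7, 49.3 and 60.1 CPM at P14 and 23.3, 31.5 and 25.1 CPM at P1. The ages were apart, with a log2 fold change of 1.07 ± 0.20 (adjusted p = 0.000706, edgeR). Slc39a3 (ZIP3) had 20.7, 22.4 and 23.3 CPM at P14 and 7.82, 4.37 and 9.77 CPM at P1, again without overlap (1.63 ± 0.28, adjusted p = 0.000327, edgeR). The third rise was Slc39a5 (2.73 ± 0.46), at 38, 18 and 41 reads at P14 and 9, 9 and 4 reads at P1.

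The 4 that fell were Slc39a8, Slc39a11, Slc39a10 and Slc39a6. Slc39a8 (ZIP8), the closest relative of ZIP14 in transported metals, had 0.633, 0.133 and 0.773 CPM at P14 and 2.22, 3.73 and 1.68 CPM at P1 (−2.28 ± 0.51, adjusted p = 0.00255, edgeR). The pair of related importers therefore had calls of opposite sign, and the level of Slc39a8 was low at both ages. Slc39a10 had 4.43, 7.04 and 7.6 CPM at P14 and 9.53, 15.5 and 15.2 CPM at P1 (−1.08 ± 0.29), and Slc39a6, with which it forms a complex in mouse cells, had 6.76, 6.51 and 7.08 CPM at P14 and 11.2, 14.9 and 13.3 CPM at P1 (−0.95 ± 0.24). These partners fell to similar degrees without overlap between ages. Slc39a11 had a log2 fold change of −1.17 ± 0.34, and its call ended without P14 replicate 2 (adjusted p = 0.0561, edgeR).

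Of the 6 zinc exporters of the Slc30 family, 1 was called (16.7%, against 43.8% of all genes). Slc30a4 (ZnT4), which loads zinc into vesicles, had 8.45, 6.11 and 8.89 CPM at P14 and 15.2, 25.9 and 14.3 CPM at P1 and fell without overlap (−1.25 ± 0.28, adjusted p = 0.00246, edgeR). Slc30a1 (ZnT1), the exporter of the plasma membrane, had 13.7, 15 and 18.2 CPM at P14 and 13.2, 21.7 and 11.3 CPM at P1, a log2 fold change of 0.00 ± 0.28. Slc30a9 had 80.4 ± 5.51 CPM at P14 and 72.2 ± 9.96 CPM at P1 (SD, n = 3) and was not called (0.15 ± 0.19), though the GC and length correction called it higher (0.38, adjusted p = 0.0341, edgeR). The copper importer Slc31a1 (CTR1) had 46.8, 41.2 and 54.5 CPM at P14 and 39.3, 63 and 46.1 CPM at P1, overlapping, at −0.06 ± 0.22. Slc41a1, a magnesium carrier, had 59.3, 42.1 and 54.2 CPM at P14 and 23.6, 21 and 26.1 CPM at P1 and rose to separate levels (1.14 ± 0.21, adjusted p = 0.000513, edgeR).

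Slc11a1 (NRAMP1), an ion carrier of macrophage phagosomes, had 4.29, 4.51 and 2.45 CPM at P14 and 1.2, 1.57 and 2.19 CPM at P1 (1.26 ± 0.37). The ages came close, and the call ended without P14 replicate 1 or 2 or P1 replicate 1 (adjusted p = 0.0534 to 0.0606, edgeR). Macrophage markers moved with it, since 5 of 7 rose (Cd68, Csf1r, Mrc1, C1qa and C1qb) and their sum was 203 to 234 CPM at P14 and 63.7 to 78.2 CPM at P1; their part was not tested. Among 11 metallothioneins, metal chaperones and related genes 5 rose (45.5% called, against 43.8% of all genes). The zinc-binding metallothionein Mt1 (1.78 ± 0.42) and the copper chaperone Atox1 (1.17) were at the top.

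Among the 8 tested genes of the monocarboxylate family Slc16, 2 rose and 2 fell (50% called, against 43.8% of all genes). Slc16a10 (MCT10), which carries aromatic amino acids and thyroid hormones, had 14.6, 13.7 and 15.2 CPM at P14 and 8.88, 8.74 and 9.93 CPM at P1. It rose without overlap by 0.66 ± 0.22 (adjusted p = 0.0256, edgeR), and the call ended without P14 replicate 2 or 3 or P1 replicate 1 (0.0597 to 0.0877). The calls also included a rise of Slc16a9, known in human as a carnitine carrier (2.07 ± 0.48), and a fall of Slc16a12, known in human as a creatine carrier (−1.23 ± 0.38), which did not pass without P1 replicate 2 or P14 replicate 1 (0.0644 and 0.082, edgeR).

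Of 7 tested genes of the thyroid hormone response 3 rose (42.9% called, against 43.8% of all genes). Among them was the hormone-induced corepressor Hr (4.01). The receptor Thrb also rose, with 8.59, 14.5 and 14.7 CPM at P14 and 0.37, 1.05 and 0.168 CPM at P1 (4.37 ± 0.44). The receptor Thra had a mean of 118 CPM at P14 and 150 CPM at P1 and was not called (−0.35). Organic anion carriers with Slco symbols, some of which also carry thyroid hormones, were all 4 called, against 43.8% of all genes. Slco3a1 had 54.2, 53.6 and 57.4 CPM at P14 and 12.7, 12.7 and 15 CPM at P1 (2.04 ± 0.20), and Slco5a1 (3.08 ± 0.40) and Slco2b1 (1.90 ± 0.25) also rose, while the prostaglandin carrier Slco2a1 fell (4.36, 4.51 and 4.51 CPM at P14, against 14.2, 13.8 and 16.5 CPM at P1; −1.73 ± 0.24).

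Nucleoside and nucleobase carriers had 3 rises among 6 (50% called, against 43.8% of all genes). Slc29a1 (ENT1), the facilitative carrier that takes up adenosine, had 95.6, 104 and 90.4 CPM at P14 and 61, 35.9 and 59.1 CPM at P1. All P14 libraries were higher, with a log2 fold change of 0.90 ± 0.22 (adjusted p = 0.00468, edgeR). Slc43a3, known in human cells as a purine nucleobase carrier, had 95.2, 90.2 and 97.7 CPM at P14 and 50.8, 58.2 and 62.5 CPM at P1 (0.72 ± 0.18, adjusted p = 0.00557, edgeR). Its relative Slc43a1, an amino acid carrier 73.0 kb away on chromosome 2, was not called (−0.07 ± 0.28). Slc28a2 (CNT2), which takes up purine nucleosides with sodium, had 11, 18.9 and 12.4 CPM at P14 and 1.94, 3.56 and 2.36 CPM at P1 (2.41 ± 0.32), with 52.3% unique windows because it shares sequence with Gm14085. Slc29a1 and Slc43a3 are expressed in endothelium as well: 3 of 6 endothelial markers rose (Vwf, Egfl7 and Tie1), and the 6 summed to 804 to 899 CPM at P14 and 558 to 729 CPM at P1. The other 3 did not pass, with log2 fold changes of 0.44 ± 0.20 for Kdr, −0.40 ± 0.20 for Cdh5 and −0.27 ± 0.19 for Pecam1, which was lower in every P14 library (119 to 161 CPM) than in every P1 library (168 to 179 CPM). The markers thus did not move together, and their part was not tested. Of 10 genes that make, break or sense adenosine, 4 rose and 1 fell (50% called, against 43.8% of all genes). The largest changes were those of the ectonucleotidase Entpd2 (3.48 ± 0.28) and the receptor Adora2a (1.29).

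Carriers of neurotransmitters and taurine included the abundant taurine carrier Slc6a6 (TauT), which was not called. It had 81.8, 90.6 and 118 CPM at P14 and 86.1, 84 and 120 CPM at P1, with wholly overlapping ages and a log2 fold change of 0.00 ± 0.21 (adjusted p = 0.992, edgeR). In taurine synthesis, 2 of 5 genes rose and 1 fell (60% called, against 43.8% of all genes). Fmo1, which oxidises hypotaurine (1.87), and Csad (0.66) rose, and the cysteine dioxygenase Cdo1 fell (−1.33). Slc6a17 (NTT4), a synaptic vesicle carrier of neutral amino acids in neurons, had 1.9, 2.92 and 3.73 CPM at P14 and 18.5, 17.5 and 12.8 CPM at P1. It fell far outside the spread, by a log2 fold change of −2.56 ± 0.30 (adjusted p = 1.38e-05, edgeR). Slc6a13 (GAT2), which carries GABA and taurine, also fell (−1.89 ± 0.48). Slc17a7, the vesicular glutamate carrier VGLUT1, had 8.16, 6.24 and 8.24 CPM at P14 and 3.38, 1.87 and 1.35 CPM at P1 and rose (1.70 ± 0.34). Of 4 tested Schwann cell and neuronal markers Dbh and Sox10 rose, with sums of 37.5 to 45.3 CPM at P14 and 6.6 to 8.2 CPM at P1, and their part in these changes was not tested.

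Carriers of organic cations, anions and drugs had 3 rises and 1 fall among 8 (50% called, against 43.8% of all genes). Slc22a17, a receptor for lipocalin 2 placed among the organic cation carriers by sequence, had 5.63, 4.12 and 2.96 CPM at P14 and 24.7, 15.8 and 26.6 CPM at P1. It was 5.13-fold lower with separate ages, a log2 fold change of −2.36 ± 0.30 (adjusted p = 2.41e-05, edgeR). Slc22a3 (OCT3), an uptake carrier of catecholamines, rests on few reads, 19, 19 and 13 at P14 and 6, 3 and 1 at P1, and overlaps Plg on the opposite strand (2.97 ± 0.52, adjusted p = 0.00041, edgeR). Slc22a4 (OCTN1), the ergothioneine carrier, had 2.82, 4.12 and 3.99 CPM at P14 and 1.16, 0.816 and 0.337 CPM at P1 and rose (2.05 ± 0.41, adjusted p = 0.00108, edgeR). The adjacent Slc22a21, 2.79 kb away on chromosome 11, stayed uncalled at 0.986 CPM at P14 and 1.33 CPM at P1 (−0.48 ± 0.43). Slc47a1 (MATE1), a proton-coupled exporter of organic cations, had 75.5, 66.8 and 65.4 CPM at P14 and 37.5, 54.1 and 40.4 CPM at P1 (0.65 ± 0.20); its call ended without P1 replicate 1 or 3 (adjusted p = 0.0763 and 0.0587, edgeR).

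Proton, sodium and calcium exchangers had 3 rises and 2 falls among 11 (45.5% called, near the 43.8% of all genes). Slc9a8, an exchanger of the Golgi, had 29.3, 34.1 and 29.7 CPM at P14 and 17.7, 16.3 and 26.8 CPM at P1 (0.63 ± 0.23, adjusted p = 0.0368, edgeR). This call was fragile and ended without any 1 library other than P1 replicate 3 (0.0551 to 0.139). Slc24a6, the mitochondrial sodium/calcium exchanger, had 7.04, 7.7 and 9.27 CPM at P14 and 2.64, 1.34 and 3.54 CPM at P1 and rose to separate levels (1.74 ± 0.34, adjusted p = 0.00101, edgeR). Its family members of the plasma membrane went both ways, with a rise of Slc24a3 (0.94 ± 0.31) and a fall of Slc24a2 (−1.57 ± 0.46), and the call of Slc24a3 ended without P14 replicate 3 or P1 replicate 1 (adjusted p = 0.0973 and 0.0723, edgeR) and that of Slc24a2 without P14 replicate 1 or 3 (0.0709 and 0.0635). The sodium/calcium exchanger Slc8a2 fell at low level (−1.44 ± 0.39).

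Sugar and sugar phosphate carriers had 3 rises and 1 fall among 12 (33.3% called, against 43.8% of all genes). Of these 4, 3 were in the Slc37 family of sugar phosphate exchangers. Slc37a1 had 13.8, 12.5 and 14.4 CPM at P14 and 5.55, 5.13 and 10.3 CPM at P1 (1.01 ± 0.28), and Slc37a2 rose too (1.25 ± 0.30). Slc37a3 had 14.4, 11.6 and 14.2 CPM at P14 and 20.9, 27.3 and 24.9 CPM at P1 and fell without overlap (−0.86 ± 0.22, adjusted p = 0.00561, edgeR). Slc37a4, the glucose 6-phosphate translocase, was not called (0.08 ± 0.21). Slc45a3 completed the rises (1.11 ± 0.37), and its call ended without P1 replicate 2 or 3 or P14 replicate 1 or 3 (adjusted p = 0.0516 to 0.0995, edgeR). The myo-inositol carrier Slc5a3 had 1.76, 6.24 and 4.51 CPM at P14 and 3.89, 2.68 and 1.85 CPM at P1 and was not called (0.46 ± 0.43).

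The remaining classes had at most 2 called genes each. The sodium-phosphate cotransporter Slc20a2 (PiT2) had 131, 144 and 154 CPM at P14 and 82.3, 62.5 and 92.3 CPM at P1, with all P14 libraries higher (0.86 ± 0.20, adjusted p = 0.0035, edgeR), and its paralogue Slc20a1 overlapped between ages (−0.18 ± 0.25). The choline carrier-like Slc44a2 had 99.6, 97.2 and 107 CPM at P14 and 52.9, 58.3 and 70 CPM at P1 (0.75 ± 0.19, adjusted p = 0.00545, edgeR). Its relative Slc44a3 fell at about 1 CPM (−1.27 ± 0.49, adjusted p = 0.0463, edgeR), and that call ended with DESeq2 (0.124), without a filter (0.0517), with the replicate number as a block (0.0505), with the GC and length correction (0.102) and without P1 replicate 3 or any P14 library (0.0569 to 0.175, edgeR). Among 9 genes of phosphatidylcholine synthesis 3 rose and 1 fell (44.4% called, against 43.8% of all genes), with Chpt1 at 1.61 ± 0.20 and Pemt at −1.08.

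The class of vitamins and cofactors also holds the haem carrier Slc48a1. In this class 1 gene rose and 1 fell of 11 (18.2% called, against 43.8% of all genes). Slc46a3, a carrier of the lysosomal membrane, had 7.6, 8.63 and 7.47 CPM at P14 and 2.41, 2.27 and 3.54 CPM at P1 (1.58 ± 0.29, adjusted p = 0.000578, edgeR). Slc19a3, the thiamine carrier THTR2, had 8, 0 and 3 reads at P14 and 38, 24 and 15 reads at P1 (−2.31 ± 0.59, adjusted p = 0.00603, edgeR). The CMP-sialic acid carrier Slc35a1 of the Golgi had 9.15, 10.4 and 10.7 CPM at P14 and 14.2, 21.4 and 14.5 CPM at P1 and fell (−0.74 ± 0.24, adjusted p = 0.0229, edgeR). Its call did not outlast the GC and length correction (0.055) or the loss of P1 replicate 2 or any P14 library (0.0573 to 0.0734, edgeR). Among 24 nucleotide sugar enzymes, 5 rose and 5 fell (41.7% called, near the 43.8% of all genes). The sulfate donor synthase Papss2 (1.45) and the GDP-mannose enzyme Gmppb (1.38) had the largest changes. Slc10a3 of the bile acid carrier family fell (−0.999 ± 0.28), and its call ended without P14 replicate 3 (0.0507, edgeR). The peptide carriers Slc15a3, Slc15a4 and Slc15a2 did not pass and had log2 fold changes of −0.24 ± 0.26, 0.16 ± 0.24 and 0.97 ± 0.62. Slc15a3 was called lower with the GC and length correction (−0.68, adjusted p = 0.00779, edgeR), also with the block added (0.0034), and with library totals alone (0.0438). Slc15a2 was called higher with the replicate number as a block (1.03, adjusted p = 0.0427, edgeR), with block and correction together (0.00621) and without P14 replicate 3 (0.0247), which had 3 reads.

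Proteins that hold carriers at the membrane or help them reach it had 2 rises and 1 fall among 9. Their called share was 33.3%, against 43.8% of all genes. Beside Slc9a3r2, Bsg (basigin), a partner of monocarboxylate carriers, rose by 1.74, with means of 2350 CPM at P14 and 705 CPM at P1, and Ahcyl2 fell (−0.76). The related scaffold Slc9a3r1 had 7.6, 7.04 and 5.67 CPM at P14 and 7.68, 2.04 and 5.22 CPM at P1 and was not called (0.44 ± 0.39), except as higher without P1 replicate 1 (1.02, adjusted p = 0.0423, edgeR). Of the 6 pairs of members of 1 family that lie within 100 kb of each other, 4 had 1 called and 1 uncalled gene and the other two had no call.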

How the data were processed

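Ventricular poly(A) RNA of P14 and P1 mice was sequenced in 3 libraries per age. The authors deposited whole-number read counts per gene, which differ in total between libraries. The submitters' processing notes name GRCm38 (mm10) as build and list bedtools and edgeR 3.2.4 without a role. Not given in the sources used here are the annotation, the aligner, the counter and whether counting used strand. The smallest total of a gene was 60 counts, so scarcer carriers are not analysed here; Slc27a6 and Slc8a3 were among the names sought and were not analysed.

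Counts were filtered with filterByExpr (minimum count 10, which removed 194 genes and left 14301), scaled by TMM and compared with edgeR 4.0.16 in R 4.3.3 by its quasi-likelihood F-test with robust dispersion, age being the one term, and Benjamini-Hochberg adjustment over all tested genes. The tests were two-sided, and an adjusted p under 0.05 made a call. The SE of a log2 fold change is the coefficient over the square root of F. The biological coefficient of variation was 23%. P-values measure the spread between pools of 3 hearts. The procedure was tested on simulated data. Positions, exon lengths, overlaps, transcript GC content and 36-base windows came from GENCODE M21, in which all 155 members were found; 43 have exons that overlap a gene on the opposite strand, 8 on the same strand, and in 18 under 80% of windows are unique. Promoter windows came from RefSeq.

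Named were the 10 most abundant members, the 10 largest rises and falls of at least 10 CPM, up to 3 called members per substrate class with 1 against them, and 21 further members whatever their result; some results under this rule are not reported here. Called members that complete a class, and family relatives, were added after their values were seen. The members, substrate classes and lists were chosen with earlier results of these data known. Alternatives were DESeq2 size factors, library totals, other filters, DESeq2 1.42.0, voom in limma 3.58.1, a stricter threshold, a spline correction for GC content and length with 4 degrees of freedom, the replicate number as a block, and leaving out each library. For each library, the deviation of its genes from the mean of its age was taken. P14 and P1 libraries of 1 replicate number had correlations of 0.295, 0.112 and 0.103, and other combinations −0.214 to 0.09. The lowest same-number value, 0.103, was thus close to the highest of the others. The main test did not use the replicate numbers as pairs, so its SE and adjusted p-values come from age alone. Pairing entered only as the block among the alternatives, which called 48.9% of all genes, against 43.8% in the main test. The labels do not state what the numbers share.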

Additional observations from a re-analysis of the deposited data

How the results depend on the processing

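The counts of 40 rises and 24 falls were 40 and 24 with DESeq2 size factors and with voom, 40 and 23 with DESeq2 and without a filter, 29 and 16 with over 5 CPM in 3 libraries (98 members tested), and 29 and 17 at an adjusted p under 0.01. Library totals alone gave 24 and 49. With the replicate number as a block, 43 rose and 24 fell and 63 of the 64 calls stayed; with the GC and length correction 45 and 29, and with both 47 and 29. Leaving out 1 library gave 33 to 40 rises and 20 to 24 falls. No called member changed sign in any of these settings; the 10 named genes that did were uncalled. With library totals alone the log2 fold changes of Slc12a2, Slc12a7, Slc30a1, Slc30a9, Slc39a7, Slc48a1, Slc5a3 and Slc6a6 were −0.41, −0.11, −0.49, −0.32, −0.16, −0.23, −0.04 and −0.44, a shift common to all genes. With over 5 CPM, Slc30a1 and Slc6a6 were at −0.02 and −0.01. With the GC and length correction Slc31a1, Slc39a7, Slc48a1, Slc4a4 and Slc6a6 were at 0.24, −0.10, −0.10, 0.10 and −0.03, and with the block as well at 0.24, −0.10, −0.09, 0.10 and −0.02. Among fits without 1 library, Slc12a2 ranged from −0.10 to 0.31, Slc30a1 from −0.15 to 0.33, Slc31a1 from −0.21 to 0.16, Slc4a4 from −0.17 to 0.16 and Slc6a6 from −0.16 to 0.20. The causes of these reversals were not tested. Depth limits the carriers near 1 CPM, which rest on few reads, most of all in P1 replicate 3.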
